A study of Mus musculus with 6 samples.

Results

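Cluster 5 is a group of 1188 of the 22378 single bone marrow haematopoietic stem cells (HSCs) profiled, or 5.31%, with higher levels of Eya4, of the imprinted non-coding RNAs Meg3 and Rian, and of Plek than the other cells pooled. Of these 4 genes Eya4 stood furthest above the next highest of clusters 0 to 9, while Meg3 and Rian were nearly as high in cluster 2 and Plek in cluster 0. Its cells were those that the authors' clustering put in cluster 5, and all genes and pathways of the authors' tables of that cluster against all other cells were read beside the tables of the other 10 clusters. The number of cells was worked out from the deposited p-values of genes seen in 1 cell. The number was 1188 from 1 gene inside the cluster, and 18 genes outside it gave 21190 other cells. The total of 22378 was taken as these 2 added, so they are no check on each other. The numbers for the 11 clusters, each worked out from the cells outside it, added up to this total. Shares of cells chosen so that the deposited means and folds add up gave 740 cells instead. The levels below use 1188.

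The HSCs were sorted from Gfp-Lc3 mice, in which the autophagosome protein LC3 is tagged with green fluorescent protein, and all groups share this genotype. They were made into 6 droplet libraries, each from 1 mouse: old ad lib, old 24 hr fast, old 24 hr fast with 24 hr refeed, young ad lib, young 24 hr fast, and young 24 hr fast with 24 hr refeed. The series' title states its purpose as the effect of a short engagement of autophagy on HSC transcription. Each age and feeding group is 1 sample, and the tables pool the 6 libraries, so how cluster 5 divides among ages and feeding states was not analysed here and no value below has an error between animals.

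Long-term HSCs are rare, mostly quiescent cells that maintain all blood lineages, and sorted HSCs still differ in lineage bias, activation and age. Dlk1, Meg3 and Rian lie in the imprinted Dlk1 to Dio3 domain, in which Dlk1 is expressed from the paternal and the non-coding RNAs from the maternal chromosome. Maternal expression in this domain, Meg3 included, is known to protect the quiescence of mouse long-term HSCs. Eya4 is a transcriptional co-activator and phosphatase of the eyes absent family, and Plek encodes pleckstrin, a protein kinase C substrate best known from platelets.

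Clusters were defined on the same expression values, so a difference between cluster 5 and the rest is a description and no test. The text uses folds and levels. The fold is the log2 fold change of cluster 5 against all other cells in the authors' deposited table. The level is the mean of a cluster in counts per 10000 counts of a cell, rebuilt from the deposited mean over all cells and the fold. A gene is called higher or lower where its fold is at least 0.5 in size and the deposited adjusted p, a test over cells, is under 0.05. Counts per cell, estimated from how many genes were left without a count, were 11111 in cluster 5 and 9579 to 15555 in clusters 0 to 4 and 6 to 9. Cluster 10 holds 10 cells and is left out of the levels by cluster.

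Cluster 5 had few higher genes. The authors' deposited table had 17055 genes with a count, of which 23 were called higher, a share of 0.135%. There were 832 called lower (4.88%), but 681 of these had no count in cluster 5. Of the 16047 genes with a count in the cluster, 151 were called lower (0.941%), and 142 of these had a mean level under the median of all genes. The median fold over all genes was -0.02. By the adjusted p alone, whatever the size, 208 genes (1.22%) had a fold above 0, and 339 with a count in the cluster (2.11%) a fold below 0. Of the 23 higher genes, 21 had their highest level in cluster 5 among clusters 0 to 9, and 8 had a fold of at least 1.

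The promoters of the 3 higher genes of the Dlk1 to Dio3 domain, which were higher together, and of Eya4, the gene with the largest fold among those called, are shown first. Each is the 250 bases before the start site farthest upstream in RefSeq on GRCm38.p6, read along the gene. Capitals mark matches on either strand to 4 motifs: TGACGTCA (the cAMP response element, CRE), TATAAA (the TATA box), CCAAT and GGGCGG (the GC box).
Meg3 promoter, chr12:109540746-109540995, plus strand: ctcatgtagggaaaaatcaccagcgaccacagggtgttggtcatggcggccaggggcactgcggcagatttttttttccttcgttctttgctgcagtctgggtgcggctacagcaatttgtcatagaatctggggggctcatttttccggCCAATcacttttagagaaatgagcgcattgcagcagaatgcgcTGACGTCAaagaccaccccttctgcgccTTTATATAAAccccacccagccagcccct
Dlk1 promoter, chr12:109452573-109452822, plus strand: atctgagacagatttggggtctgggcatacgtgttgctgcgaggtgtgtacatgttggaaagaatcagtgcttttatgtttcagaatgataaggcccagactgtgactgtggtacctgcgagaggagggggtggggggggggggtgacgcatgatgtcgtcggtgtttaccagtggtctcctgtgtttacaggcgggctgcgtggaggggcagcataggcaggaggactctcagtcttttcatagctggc
Rian promoter, chr12:109603695-109603944, plus strand: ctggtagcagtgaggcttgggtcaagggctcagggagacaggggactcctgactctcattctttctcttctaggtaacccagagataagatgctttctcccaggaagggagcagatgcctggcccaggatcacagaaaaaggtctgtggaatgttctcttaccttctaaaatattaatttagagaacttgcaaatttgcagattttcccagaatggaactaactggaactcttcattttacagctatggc
Eya4 promoter, chr10:23349944-23350193, minus strand: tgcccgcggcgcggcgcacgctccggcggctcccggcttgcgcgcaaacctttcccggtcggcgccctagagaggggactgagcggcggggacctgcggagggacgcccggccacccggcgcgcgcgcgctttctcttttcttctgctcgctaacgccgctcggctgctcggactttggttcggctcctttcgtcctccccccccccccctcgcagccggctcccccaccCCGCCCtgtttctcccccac

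The Meg3 window held a CCAAT match 100 bases, a CRE match 57 bases and 2 overlapping TATA matches, 1 on each strand, 29 and 25 bases before the start. The Dlk1 and Rian windows held none of the 4 motifs, and the Eya4 window held 1 GC box 20 bases before the start. Over the same window of 32851 RefSeq promoters, 1.55% held the CRE, 12.4% the TATA box, 33.8% CCAAT and 32.7% the GC box. The Eya4 window was 74% G and C with 35 CpG dinucleotides, against 10 CpG for Meg3, 8 for Dlk1 and 0 for Rian. The 3 genes that were higher together thus shared none of these motifs in the windows shown. A match is a description of the letters and says nothing of which factors bind. Whether each window, set by the annotated start alone, acts as a promoter in these cells was not tested.

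Eya4 (chromosome 10, 23102963 to 23350786, minus strand, mm10) had a level of 0.157 in cluster 5, against 0.0310, 0.0422, 0.0582, 0.0272 and 0.0438 in clusters 0 to 4. Clusters 6 to 9 lay at 0.0140, 0.0635, 0.0154 and 0.0379, so cluster 5 was 2.47 times the next highest. The fold in the authors' deposited table was 1.99 (adjusted p 2.3e-11). Eya4 is a rare transcript, with a log2 mean level of -4.45 against a median of -3.36 over all genes. Its paralogs were not called: the authors' deposited table gave 0.05 for Eya1, 0.08 for Eya2 and 0.07 for Eya3, none past the adjusted p. Of 8 measured genes of the eyes absent and dachshund families and their homeobox partners, which act together in transcription, Eya4 alone was called, and the median fold was 0.06. The only other gene at 2 times or more the next cluster was 3830403N18Rik, with 0.0657 in cluster 5 and 0.0234 in cluster 2, the next highest.

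The genes most like Eya4 in their levels over clusters 0 to 9 were ranked by Pearson correlation among 8534 genes at or above the median mean level. Mgat4a, a glycosyltransferase of N-glycan branching, came first with an r of 0.925 over 10 clusters. Sorbs2, an actin-linked adaptor, followed with 0.913, then Rian with 0.908. Fut8, the enzyme of core fucosylation, had 0.906, and Lcp2, an adaptor of immune receptor signalling, had 0.899. In the authors' deposited table these 5 genes had folds of 0.44, 0.69, 1.17, 0.46 and 0.19 in cluster 5. The clusters share libraries and the levels come from linked tables, so these values describe likeness only.

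**Figure D1:**
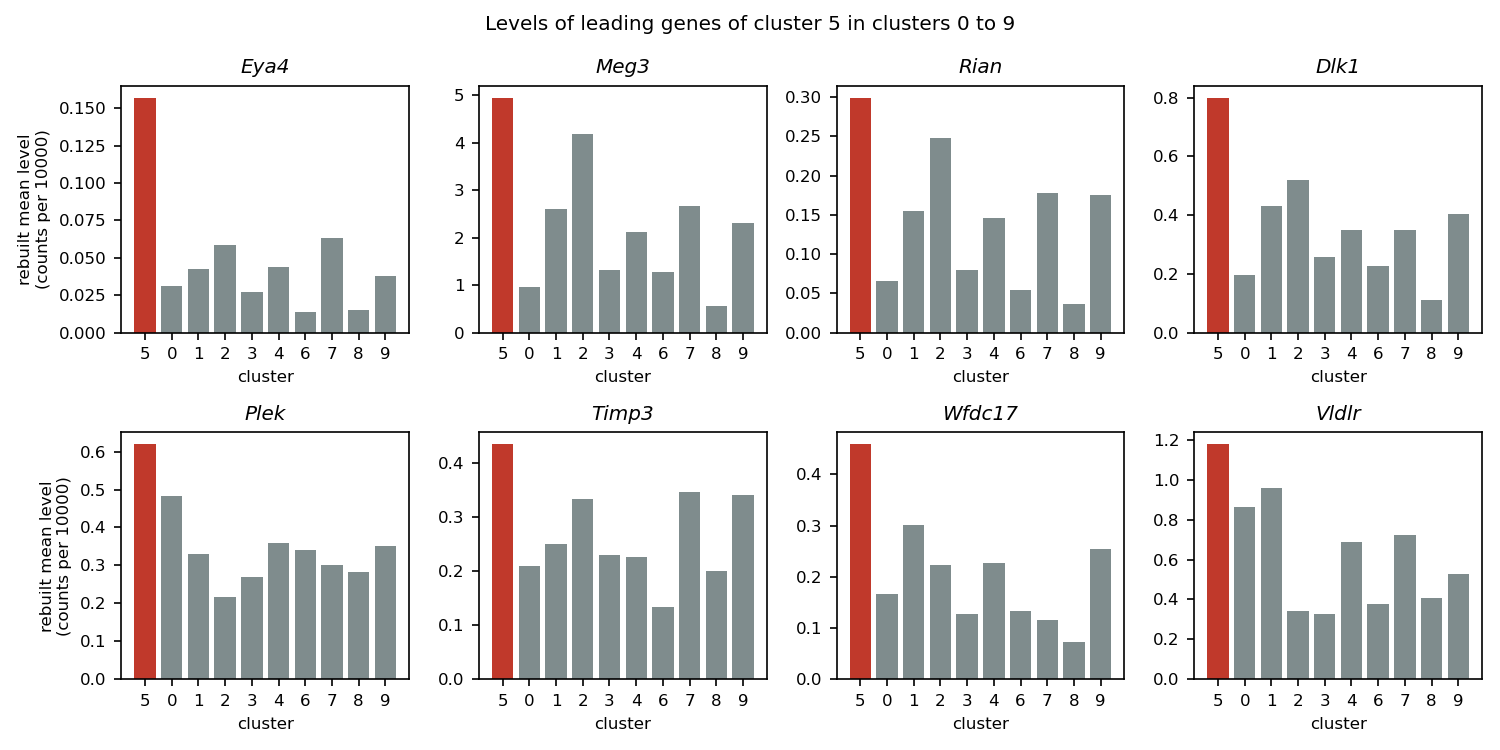
Rebuilt mean level in counts per 10000 (vertical axis, from 0, with a scale of its own for each gene) of 8 genes in cluster 5 (red) and in clusters 0 to 4 and 6 to 9 (grey). Every one of the 8 is highest in cluster 5; Eya4 stands at 0.157 there and at most 0.0635 elsewhere, while Meg3 stands at 4.95 in cluster 5 and 4.18 in cluster 2.

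Meg3 (chromosome 12, 109541001 to 109571726) had a level of 4.95 in cluster 5, against 0.954, 2.61, 4.18, 1.33 and 2.11 in clusters 0 to 4. Cluster 2 was thus nearly as high, and cluster 5 was 1.18 times it. The fold of Meg3 in the authors' deposited table was 1.28 (adjusted p 1.6e-39). Rian, the host RNA of many small RNAs, had 0.299 in cluster 5 and 0.248 in cluster 2, the next highest, and the authors' deposited table gave a fold of 1.17. Dlk1, a transmembrane protein related to Notch ligands, had 0.800 in cluster 5 and 0.520 in cluster 2, with a fold of 1.25 in the authors' deposited table. All 3 ran in the same order over clusters 0 to 5, with cluster 5 highest, then clusters 2, 1, 4, 3 and 0. Dlk1, Meg3 and Rian span 208894 bases, and the labels do not say whether reads were assigned by strand.

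All 5 measured genes of the domain had folds above 0. The other two, Mirg and B830012L14Rik, are maternal non-coding RNAs of the domain with few counts. They had folds of 0.83 (adjusted p 0.160) and 0.81 (adjusted p 0.191) in the authors' deposited table and did not pass. Among 23 measured imprinted genes no other was called, and their median fold was 0.01, against -0.02 over all genes. Cdkn1c, the imprinted inhibitor of cyclin-dependent kinases known from quiescent HSCs, had a level of 0.787 in cluster 5 and 0.811 in the other cells. Kcnq1ot1, an imprinted non-coding RNA on chromosome 7, had a fold of 0.12 in the authors' deposited table, past the adjusted p but under the size needed.

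Plek (chromosome 11, 16971206 to 17052381) had a level of 0.620 in cluster 5, against 0.484, 0.330, 0.218, 0.269 and 0.360 in clusters 0 to 4. Its order differed from that of Meg3, since cluster 0 was the next highest and cluster 2 the lowest. The fold in the authors' deposited table was 0.88. Vldlr, a receptor for lipoproteins and reelin, likewise had 1.18 in cluster 5, then 0.961 in cluster 1 and 0.862 in cluster 0, with 0.344 in cluster 2. Its fold in the authors' deposited table was 0.91. Cluster 5 thus combined genes whose next highest level lay in cluster 2 with genes whose level in cluster 2 was low.

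Among 21 genes of pleckstrin signalling and platelet secretion, Plek alone was called, and the median fold was -0.00. None of 20 megakaryocyte priming genes was called, but 6 passed the adjusted p with small folds in both directions. By comparison, 0.135% of all genes were called higher, and 0.941% of those with a count in the cluster lower. Itgb3, the platelet integrin beta chain, had 0.41, and Selp, P-selectin, had 0.38 in the authors' deposited table. In the same authors' deposited table Vwf, von Willebrand factor, had -0.44, Gp9 of the platelet glycoprotein complex -0.33, Pf4, platelet factor 4, -0.27 and the transcription factor Mef2c -0.11. The level of Vwf was 0.368 in cluster 5 and 0.501 in the other cells, and that of Selp was 0.953 and 0.737 in the same order.

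Timp3, an inhibitor of metalloproteases held in the extracellular matrix (chromosome 10, 86300372 to 86349506), had a level of 0.435 in cluster 5, against 0.210 to 0.335 in clusters 0 to 4, of which cluster 2 was the highest. Its fold in the authors' deposited table was 0.82. Of 17 measured TIMPs and metalloproteases no other was called, and Timp2 had a fold of 0.11 (adjusted p 0.503) in the authors' deposited table. The extracellular matrix list had a median of 0.19 over 21 genes, of which none was called and Col4a1, a basement membrane collagen, passed the adjusted p with a fold of 0.30 in the authors' deposited table.

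Wfdc17, a secreted protein with a WAP domain known from mouse macrophages (chromosome 11, 83703991 to 83706268), had a level of 0.459 in cluster 5, against 0.166, 0.302, 0.222, 0.127 and 0.226 in clusters 0 to 4. Its fold in the authors' deposited table was 1.18. It lies beside a group of chemokine genes, and the stretch from Ccl5 to Heatr6, chosen after the values were seen, held 10 measured genes. Of these Ccl9, Ccl3 and Wfdc17 were called higher, within 133350 bases. Together with the Dlk1 to Dio3 domain, 6 of the 23 higher genes lay in 2 stretches of the genome. Because the chemokine stretch was chosen around genes whose values were known, this count does not measure clustering along the genome.

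Ccl9 had a level of 0.122 in cluster 5 and 0.101 in cluster 9, the next highest, against 0.0328 to 0.0497 in clusters 0 to 4. Ccl3 had 0.0499 in cluster 5 and 0.0286 in cluster 2, the next highest. Both encode chemokines that attract leukocytes, and their folds in the authors' deposited table were 1.50 and 1.03. Both are rare transcripts, with log2 mean levels of -4.40 for Ccl9 and -5.28 for Ccl3, against a median of -3.36 over all genes. Ccl4, the near copy of Ccl3, is the gene of the stretch with the highest mean level, and its fold was 0.34 in the authors' deposited table. Ccl5 (-0.62, adjusted p 0.744) and Ccl6 (-0.03) were not called in the authors' deposited table. Wfdc18 had a fold of 1.50 there, in the authors' deposited table, and did not pass (adjusted p 0.138). Near copies in both families can share reads, so the split among them is uncertain.

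Macrophage markers in cluster 5 were close to those of the other cells. The 13 measured markers had a summed level of 0.149 in cluster 5 and 0.158 in the other cells, with 1 called lower (Vcam1, fold -2.30 in the authors' deposited table) and none higher. The summed level over clusters 0 to 4 and 6 to 9 lay between 0.144 and 0.305. The part of such cells in the Wfdc17 and chemokine values was not tested. Among 24 inflammation genes Ccl3 alone was called higher, against 0.135% of all genes. Il1b and Il6, which encode inflammatory cytokines, had no count in cluster 5 and were called lower, as 681 of the 832 lower genes had no count. Ltb, lymphotoxin beta, had a fold of -0.18 and Nfkbia, the NF-kB inhibitor, -0.19 in the authors' deposited table. None of 28 interferon response genes passed even the adjusted p.

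Sult1a1, a sulfotransferase, and Gda, guanine deaminase, were higher in cluster 5 and belong to a list of genes known to be higher in aged mouse HSCs. Sult1a1 had a level of 3.46 in cluster 5, against 1.34, 2.57, 2.85, 2.80 and 2.19 in clusters 0 to 4. Gda had 1.56 in cluster 5, against 0.684, 1.03, 1.20, 1.24 and 1.26 in those clusters. Their folds were 0.63 and 0.58 in the authors' deposited table. Ramp2, which escorts the receptors of adrenomedullin and CGRP to the cell surface, is on the same list and was called lower. Its level was 0.356 in cluster 5, against 0.252, 0.398, 0.564, 1.12 and 0.546, and its fold in the authors' deposited table was -0.61.

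The ageing list was thus split in cluster 5. Of 31 genes 2 were called higher and 1 lower, against 0.135% of all genes higher and 0.941% of those with a count lower. The median fold was 0.12, against -0.02 over all genes. A further 7 passed the adjusted p with a small positive fold. In the authors' deposited table these were the retinaldehyde dehydrogenase Aldh1a1 (0.42), Itgb3 (0.41), Selp and the stress protein Nupr1 (both 0.38), the Hippo co-activator Wwtr1 (0.35), the adhesion receptor Alcam (0.23) and Plscr2 (0.21). The authors' deposited table put 4 others on the negative side: Vwf (-0.44), the metallothionein Mt2 (-0.30), Slamf1 (-0.26) and the chaperone Clu (-0.23). Since the libraries of young and old mice are pooled, this says nothing of the age of the cells.

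Of the other higher genes, Gm35551 had a level of 0.714 in cluster 5 and 0.494 in the other cells. Cyp26b1, which breaks down retinoic acid, had 0.267 in cluster 5 but 0.278 in cluster 2, and its fold in the authors' deposited table was 0.58. Sorbs2 had 0.155 in cluster 5 and at most 0.111 in the other clusters. In the authors' deposited table Cd200r4 of the CD200 receptor family had a fold of 0.97, the keratin Krt8 0.75, R-cadherin (Cdh4) 0.73, the ubiquitin ligase Neurl1b 0.68, the growth factor midkine (Mdk) 0.63, the drug efflux pump Abcb1a 0.60 and the deubiquitinase Uchl1 0.53. These 7 all had a mean level under the median of all genes. Just inside the size needed were Uchl1 and Gm35551 (0.54) in the authors' deposited table, and just outside it Pde6h and Cd53, both 0.48.

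**Figure D2:**
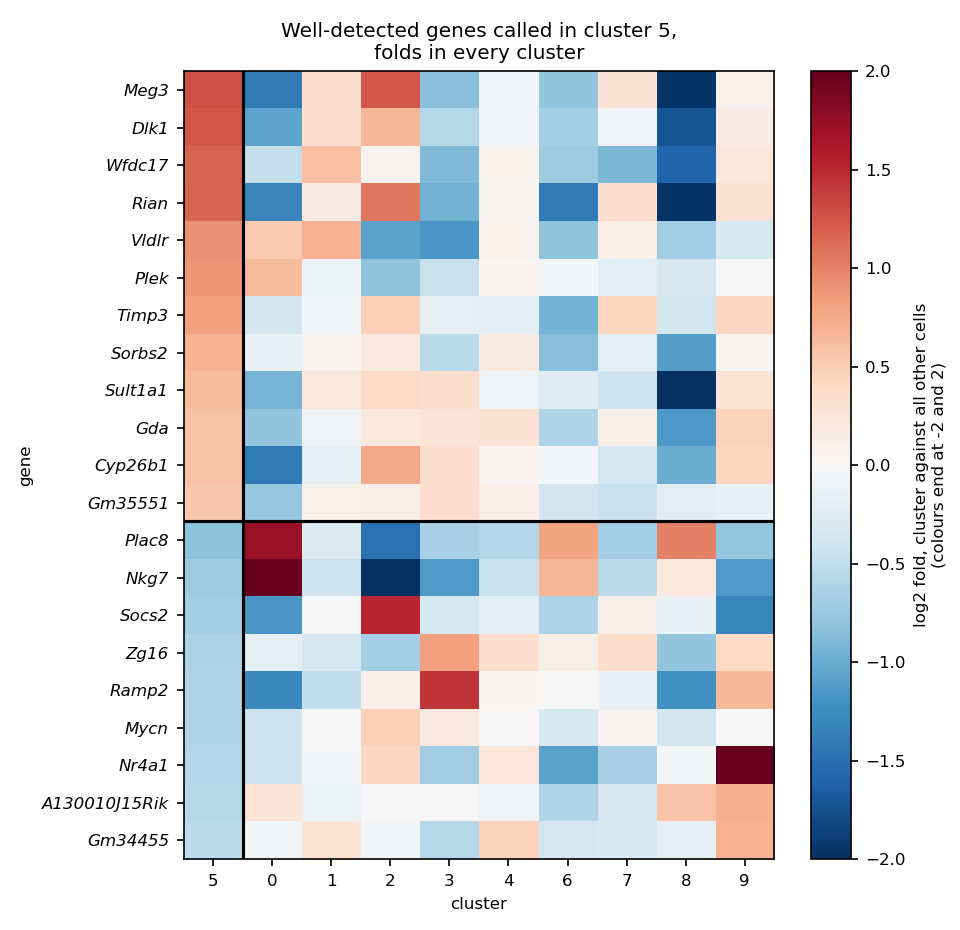
Log2 fold of each cluster against all other cells (colour, ending at -2 and 2, red above 0) for the 12 higher genes (above the line) and 9 lower genes (below it) of cluster 5 with a mean level at or above the median, with cluster 5 in the first column. Meg3, Dlk1 and Rian are also red in cluster 2 and blue in cluster 0, while Plac8 and Nkg7 are reddest in cluster 0.

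Some genes with much higher levels differed by less than the size needed but passed the adjusted p in the authors' deposited table; they were chosen after their values were seen. Ctla2a, a cathepsin inhibitor, had a level of 10.8 in cluster 5, against 10.9 in cluster 0, 9.95 in cluster 1 and at most 7.21 in clusters 2 to 4. Adgrl4, an adhesion G protein-coupled receptor known from endothelium, had 3.69 in cluster 5, the highest of clusters 0 to 9, and 2.87 in the other cells. Fut8 had 3.40 in cluster 5 and 2.49 in the other cells, of which cluster 7 had 3.44. Their folds were 0.43, 0.38 and 0.46 in the authors' deposited table. Malat1, a nuclear non-coding RNA, had a level of 226 in cluster 5 and 201 in the other cells. It was higher in clusters 2, 4, 7 and 9, at 227, 244, 307 and 245.

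**Figure D3:**
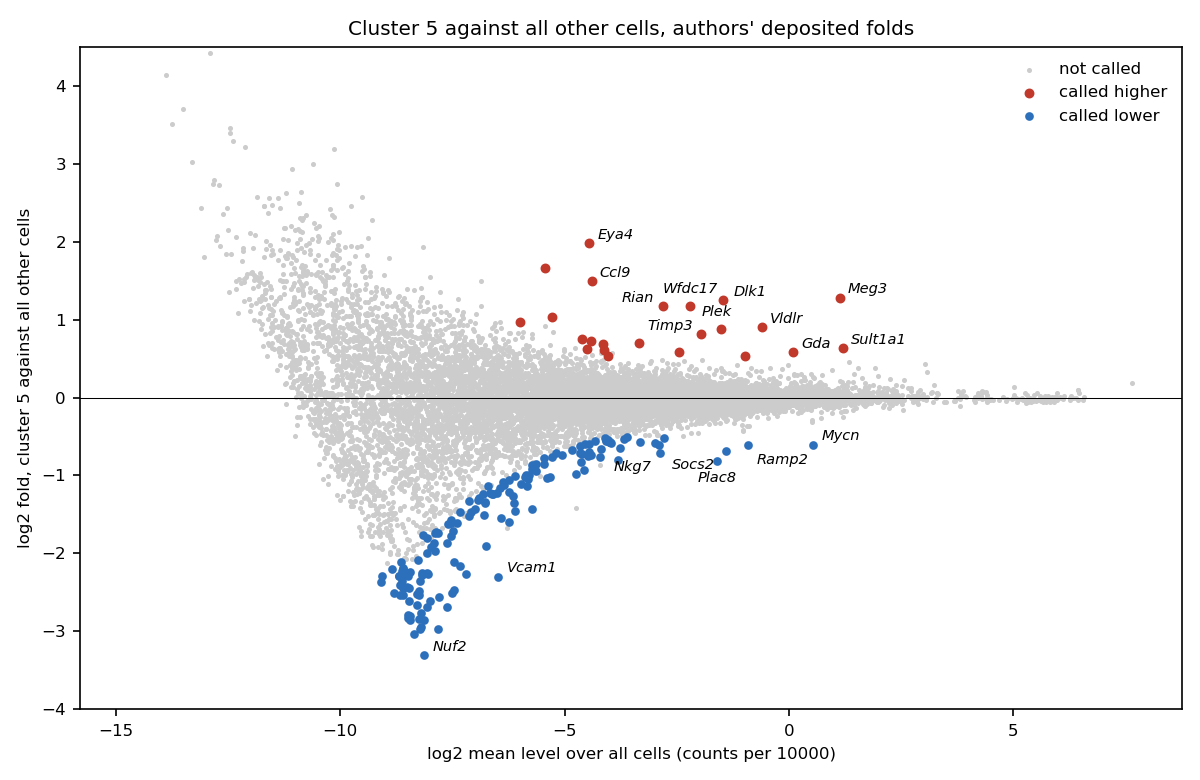
Log2 fold of cluster 5 against all other cells (vertical axis) by log2 mean level over all cells in counts per 10000 (horizontal axis), 1 point a gene with a count in cluster 5, within the range drawn. The 23 genes called higher (red) lie at log2 -6.01 or to its right, while most of the 151 called lower (blue) lie at low levels.

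Lower genes with a mean level at or above the median were 9, and 4 of these were lowest in cluster 5 among clusters 0 to 5. Mycn, a MYC family transcription factor that acts with Myc in HSC growth and survival, had a level of 0.970 in cluster 5, against 1.15, 1.45, 1.89, 1.61 and 1.46 in clusters 0 to 4. It was lower there than in any of clusters 0 to 9, and its fold in the authors' deposited table was -0.60 (adjusted p 7.8e-24). Socs2, a feedback inhibitor of cytokine signalling, had 0.240 in cluster 5, against 0.192, 0.378, 0.817, 0.307 and 0.331 in clusters 0 to 4, and a fold of -0.68 in the authors' deposited table. Clusters 5 and 2, close in Meg3, thus differed in Socs2.

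Plac8, a gene of myeloid and lymphoid progenitors, had a level of 0.193 in cluster 5, against 0.727, 0.282, 0.132, 0.226 and 0.234 in clusters 0 to 4. Nkg7, a granule protein of cytotoxic cells, had 0.0855 in cluster 5, against 0.339, 0.107, 0.0332, 0.0685 and 0.105. For both genes cluster 0 was the highest of these clusters and cluster 2 the lowest. Their folds were -0.81 and -0.71 in the authors' deposited table. The remaining well-detected lower genes were Nr4a1 (-0.58), Zg16 (-0.61), A130010J15Rik (-0.57) and Gm34455 (-0.52) in the authors' deposited table.

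The lower genes at the end of the table were mostly rare. In the authors' deposited table Nuf2, a kinetochore protein, had a fold of -3.31, Filip1 -3.04, Clec2f -2.97, Nudt17 -2.86, the actin bundler Pls1 -2.48, Bex6 -1.60 and the melanocortin receptor Mc5r -0.80. The level of Nuf2 was 0.000379 in cluster 5 and 0.00376 in the other cells. Such values rest on very few cells. A gene without a count in the 1188 cells allows a share of cells with a counted molecule of up to 0.253% (3 counts, counting error only).

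The label of HSCs was set beside 10 long-term HSC markers. All cells compared were sorted as HSCs, so the comparison cannot test the label. The markers had a summed level of 18.9 in cluster 5 and 17.5 in the other cells, and between 13.1 and 21.0 over clusters 0 to 4 and 6 to 9. Over all genes 0.135% were called higher, and 0.941% of those with a count in the cluster were called lower. None of the 10 markers was called, and their median fold was 0.04. A small positive fold past the adjusted p was found for 4 of them in the authors' deposited table: Ly6a (Sca-1, 0.35), the transcription factor Hlf (0.23), Procr (the protein C receptor EPCR, 0.18) and the stem cell factor receptor Kit (0.15). Hoxb5, which marks long-term HSCs, had -0.30, and Slamf1 (CD150) -0.26 in the authors' deposited table. The level of Hoxb5 was 0.225 in cluster 5, the lowest of clusters 0 to 9, and 0.277 in the other cells. No gene of the wider list of 26 HSC identity genes was called, and their median fold was 0.02.

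No marker of any of 10 other cell types was called higher. Only 0.135% of all genes were called higher, so this does not show that such cells were absent. Summed levels were 1.78 in cluster 5 and 1.85 in the other cells for 11 megakaryocyte markers, 9.72 and 10.4 for 14 erythroid markers, and 2.48 and 2.51 for 12 endothelial markers, in that order. The defining endothelial genes Cdh5 and Flt1, the erythroid gene Alas2, the T cell gene Cd3d, the B cell genes Ebf1 and Ms4a1 and the mast cell genes Fcer1a and Ms4a2 had no count in cluster 5, as had 1008 of all 17055 genes. Folds above 0 were found for 4 of 10 B cell, 2 of 6 T and NK cell, 2 of 14 erythroid and 3 of 12 endothelial markers, up to 2.03, 0.65, 0.91 and 0.18 in the authors' deposited table, none past the adjusted p. Stromal markers summed to 0.440 in cluster 5 and 0.454 in the other cells, dendritic ones to 1.70 and 1.74, B cell ones to 0.374 and 0.417, T and NK cell ones to 0.432 and 0.462, and mast cell and basophil ones to 0.0182 and 0.0272, in that order.

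Granulocyte-monocyte markers summed to 13.7 in cluster 5 and 11.6 in the other cells, and most of this was Prtn3. Prtn3, a protease of neutrophil granules, had a level of 10.5 in cluster 5 and 8.40 in the other cells, of which cluster 1 had 10.7. Its fold was 0.33 in the authors' deposited table, while Mpo, the myeloperoxidase of the same granules, was called lower at -2.25 in the authors' deposited table. Mpo had a level of 0.000751 in cluster 5 and 0.00359 in the other cells. Over 18 myeloid priming genes 2 were called lower (Mpo and Plac8) and none higher, with a median of -0.18. For all genes the shares were 0.135% higher and, of those with a count in the cluster, 0.941% lower. Among 20 erythroid priming genes Mfsd2b (-0.94) and Aqp1 (-0.58) were called lower in the authors' deposited table. Mfsd2b had a level of 0.0107 in cluster 5, against 0.0544 in cluster 0 but 0.00902 to 0.0108 in clusters 1 to 4. Aqp1 had 0.0433, against 0.124 in cluster 0 and 0.0334 to 0.0555 in clusters 1 to 4. Low levels of these 2 genes were thus not particular to cluster 5. Among 19 lymphoid priming genes 4 had no count, 1 of them, Ccr7, called lower, and none was higher.

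Of 17 genes on the quiescence list, Socs2, Klf4 and Mycn were called lower and none higher, with a median of -0.02. The list mixes roles, since Mycn, as said above, acts in HSC growth and survival. Klf4, Klf2 and Btg2 are also on the immediate early list below, so the 2 lists are not separate observations. Small folds past the adjusted p went both ways in the authors' deposited table: Cdkn2c, an inhibitor of G1 kinases, had 0.29 and Txnip, an inhibitor of thioredoxin, 0.16, while Klf2 had -0.46 and Btg2 -0.31. For comparison, 151 of the 16047 genes with a count in the cluster were called lower (0.941%), and 23 of all 17055 genes higher (0.135%). Of 26 immediate early genes, which respond within minutes to stimulation and also to cell isolation, Nr4a1 and Klf4 were called lower and none higher, with a median of -0.14. This list depended on which clusters were set against cluster 5: with the other 10 weighted equally its median was -0.68, and the fold of Nr4a1 was -2.19. A further 6 passed the adjusted p with a small negative fold in the authors' deposited table: Klf2 (-0.46), Btg2 (-0.31), Fos (-0.25), Fosb (-0.24), Ier3 (-0.17) and Ier2 (-0.13). Socs3, a feedback inhibitor of cytokine signalling, was the exception at 0.31 in the authors' deposited table. The summed level of this list was 30.9 in cluster 5 and 32.9 in the other cells, and it reached 153 in 1 of clusters 0 to 4 and 6 to 9. Nr4a1 had a level of 0.0852 in cluster 5, against 0.0991, 0.124, 0.158, 0.0826 and 0.144 in clusters 0 to 4 and 2.65 in cluster 9. Fos had 1.96 in cluster 5, against 1.86, 2.85, 2.28, 1.59 and 3.24 in clusters 0 to 4 and 21.3 in cluster 9, so cluster 5 lay above clusters 0 and 3.

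Antigen presentation genes gave small positive folds. Of 20 genes none was called, 80% had a fold above 0 against 44.5% of all genes, and the median was 0.05. The class II genes H2-Eb1, H2-Aa and H2-Ab1, which present peptides to helper T cells, had folds of 0.34, 0.34 and 0.32 in the authors' deposited table. The level of H2-Aa was 0.753 in cluster 5 and 0.598 in the other cells. Cluster 1 was close, with 0.738 for H2-Aa. H2-Ab1 had 0.651 in cluster 5 and 0.637 in cluster 1, and H2-Eb1 had 0.449 and 0.460. The median fold of the list was 0.08 in cluster 1, so the small positive folds were not particular to cluster 5. In the TGF-beta and BMP list Smad6, an inhibitor of the pathway, was called lower (-0.62), and Id2, a target of it, had 0.41 in the authors' deposited table. Among 17 HOXA and HOXB genes none was called, against 0.135% of all genes higher and 0.941% of those with a count lower. Hoxa10 had 0.31 and Hoxb2 -0.25 in the authors' deposited table.

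The metabolic and growth lists had medians between -0.10 and 0.07, against -0.02 over all genes. Over all genes 0.135% were called higher, and 0.941% of those with a count in the cluster were called lower. A list without a call thus does not by itself show that a program was unchanged. None of 37 autophagy genes was called, their folds lay between -0.16 and 0.21, and Vmp1, a protein of autophagosome formation, alone passed the adjusted p (0.16 in the authors' deposited table). Of 34 lysosome genes Ctss, cathepsin S, was called lower (-0.54 in the authors' deposited table). None of 25 glycolysis genes, 54 nuclear-encoded genes of oxidative phosphorylation, 24 cholesterol synthesis genes, 22 fasting and FOXO target genes, 17 heat shock genes and 26 MYC and nucleolar genes was called. The nuclear-encoded respiratory genes had a median of -0.04 with 9.26% above 0, against 44.5% of all genes. Of them 5 passed the adjusted p with a small negative fold and none with a positive one. The 13 mitochondrially encoded ones had a median of 0.07 with 92.3% above 0. Of these 9 passed the adjusted p with a small positive fold and 1 with a small negative one. Medians of the nuclear-encoded genes in clusters 0 to 4 were 0.13, 0.01, -0.07, 0.02 and -0.09, each against all other cells. Those of the mitochondrially encoded genes were 0.003, -0.03, -0.13, 0.07 and -0.03. Clusters 2 and 4 were thus lower still in the nuclear-encoded genes, and cluster 3 was like cluster 5 in the mitochondrially encoded ones. Of 20 ATF4 and amino acid stress genes Vldlr alone was called. None of 27 S phase and 26 G2M genes was called, with medians of -0.06 and -0.10.

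None of the 32 measured cytokine receptor genes, 30 WNT and Notch genes and 8 sex-linked genes was called, and their medians were 0.02, -0.00 and 0.00. Few genes were called in all, 0.135% higher and 0.941% of those with a count lower. Of 29 integrin and adhesion genes Vcam1 was called lower, and the median was 0.01. Of 18 WAP-domain and other protease inhibitors Wfdc17 alone was called, with a median of 0.05. Meg3 and Rian were the called members among 8 nuclear RNAs, whose median was 0.19.

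**Figure D4:**
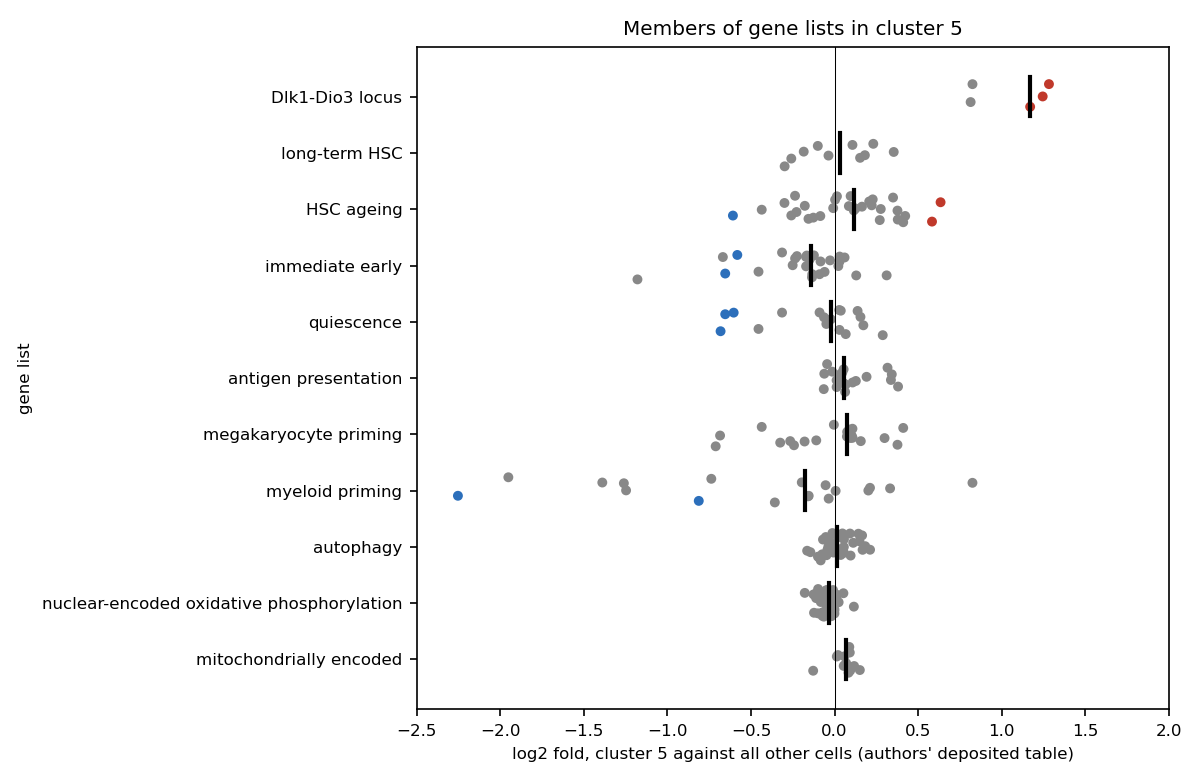
Log2 fold of cluster 5 against all other cells (horizontal axis) for members of 11 gene lists with a count in the cluster (1 point a gene, red called higher, blue called lower, grey not called), with the list's median as a black bar. The 5 genes of the Dlk1 to Dio3 locus lie between 0.81 and 1.28, while the 37 autophagy genes lie between -0.16 and 0.21.

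Cluster 5 was set beside each of the large clusters over 8534 genes with a mean level at or above the median. The median absolute log2 difference in level was 0.07 from cluster 3, 0.08 from clusters 1 and 4, 0.09 from cluster 2 and 0.10 from cluster 0. Genes at least 0.5 higher and lower in cluster 5 numbered 148 and 74 against cluster 0, 28 and 12 against cluster 1, 91 and 87 against cluster 2, 32 and 22 against cluster 3, and 17 and 19 against cluster 4. These differences have no replicate error.

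The authors' deposited table of pathways listed 2922, of which 177 (6.06%) had a score above 0 with an adjusted p under 0.05 and 335 (11.5%) a score below 0, but only 42 and 24 of them had a fold of at least 0.1 in size. The highest by score in the authors' deposited table were lncRNA-mediated therapeutic resistance (fold 0.68), VLDL clearance (0.63), and arylamine and tamoxifen metabolism (both 0.63). The last pair had the same values as each other, and their fold equals that of Sult1a1. Next in the authors' deposited table came vitamin A and carotenoid metabolism (0.23), sulfation (0.29), sulfur metabolism (0.30) and reelin signalling (0.39). Pathway members were not analysed here, so these are not results apart from the genes.

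Among the lowest by score in the authors' deposited table were negative regulation of FLT3 (-0.05), the blood clotting cascade (-0.35), ghrelin (-0.30), FLT3 signalling by CBL mutants (-0.05) and dual incision of global genome repair (-0.03). CYP2E1 reactions and thyroxine production were also among them, without a usable fold in cluster 5. Of 9 pathways with autophagy in the name none was higher and 2 were lower, late endosomal microautophagy and chaperone-mediated autophagy, both at -0.03 in the authors' deposited table. The folds of the 9 lay between -0.03 and 0.02 in the authors' deposited table.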

How the data were processed

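Droplet single-cell RNA sequencing covered sorted HSCs in 6 libraries, 1 mouse each. Per the submitters' processing notes, Scanpy and the mm10 build were used. How reads were aligned, cells filtered, doublets handled and clusters set is not stated in those notes. The authors deposited 22 tables, 2 per cluster. In the gene tables the authors deposited the log2 mean over all cells, made from counts scaled to 10000 per cell (read from the values, whose means sum to 10000), and a cluster's log2 fold change. The p-values that the authors deposited, with adjusted ones, behave as Welch tests over cells. In the pathway tables the authors deposited a score that behaves as a signed test statistic; how it was made is not stated. Since cells are no replicates, these p-values served as a filter only.

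Cell numbers came from genes seen in 1 cell, where the p-value is fixed by how many cells were compared, within 0.01 of a whole number. Levels follow from the mean, the fold and the cluster's share of cells. They are approximate, because the folds appear to be of averaged log values; over clusters they added up to a median of 1.00 times the deposited mean (at most 1.07 times). Both steps were tried on simulated cells compared by the t-test of Scanpy. That test and its folds were assumed, so the simulation cannot settle the number of cells in the deposited data. A fold under -10 was read as no count. Of 17068 genes, 13 had no count in any cell, and 16801 matched GENCODE vM21 by symbol for positions. Promoters came from RefSeq (GRCm38.p6). Python 3.11.15, pandas 2.3.3, NumPy 2.4.6, SciPy 1.17.1 and matplotlib 3.10.9 were used.

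Genes named were the 6 label genes, the first 20 higher and last 12 lower in table order (skipping Gm and Rik names and, among the lower, genes without a count), up to 4 called members of each list, genes at 2 times the next cluster, and the 5 most like Eya4. Pathways were the 8 highest and 8 lowest by score, of which 1 is not reported here. Members that passed the adjusted p alone, and other genes said to be so, were chosen after their values were seen. The members and the 49 lists were chosen with earlier results of these data known.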

Additional observations from a re-analysis of the deposited data

How the results depend on the processing

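Of the 23 genes called higher, 8 had a fold of at least 1 and 12 a mean level at or above the median. Of the 832 called lower, 151 were left without the genes that had no count in cluster 5, and 9 had a mean level at or above the median. With a pathway fold of at least 0.1 in size, 42 pathways were higher, against 177, and 24 lower, against 335. Shares of cells chosen so that means and folds add up gave 740 cells in cluster 5, against 1188, and the cause was not tested. Against clusters 0 to 4 pooled, 196 of 196 named folds stayed within 1.5 times. Against the other clusters weighted equally 186 did and 10 moved further, among them Nr4a1 (-2.19, against -0.58) and Fos (-1.17, against -0.25), and 7 of 49 list medians moved by over 0.25, the immediate early one to -0.68. No called fold changed sign. No paired analysis was possible because the tables pool the libraries and each group is 1 library. The number of cells and their depth limit which genes could be seen: 1008 genes had no count in the 1188 cells.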
